A study of Mus musculus with 2 samples.

Results

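The 10 genes described here encode the parts of the T cell receptor (TCR) complex and its coreceptors: the CD3 chains *Cd3e*, *Cd3d*, *Cd3g* and *Cd247*, the receptor constant regions *Trac*, *Trbc2* and *Trdc*, and the coreceptors *Cd4*, *Cd8a* and *Cd8b1*. They were chosen by name, and all 10 were found among the 22337 gene symbols of the matrix. Cells came from Bm12 heart allografts taken 14 days after transplantation into B6 mice, from 3 wild-type (IL-33+) donor hearts and 3 IL33 KO (IL-33-) donor hearts. Donor and recipient differ by a mutation in the I-A class II molecule of Bm12 mice, so that every graft was mismatched for MHC class II, and the KO was in the graft and not in the recipient. The ages of the mice are not given in the sources used here. Immune cells were enriched on a density gradient, a hashtag antibody labelled the cells by heart of origin, and all 6 hearts were pooled for single-cell RNA sequencing. The heart was the replicate (hearts 1 to 3 were IL-33+ and hearts 4 to 6 were IL-33-). Of the 4441 cells, each placed in 1 of 14 types by the deposited annotation, 1461 were annotated as naive T (Tn), central memory T (Tcm), effector/effector memory T (Tem/eff), resident memory-like T (Trm-like) or regulatory T (Treg) cells, called pooled T cells below.

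A T cell recognizes its antigen, for αβ cells mostly peptide held by an MHC molecule, through a pair of variable receptor chains, either α and β or γ and δ, whose constant ends are encoded by *Trac*, *Trbc1* or *Trbc2*, *Trdc* and the γ constant genes. The receptor chains have almost no signalling tail of their own and reach the surface only in a complex with CD3ε, CD3δ, CD3γ and the ζ chain (*Cd247*), which carry the motifs that Lck phosphorylates and Zap70 binds. CD4 binds MHC class II and CD8 binds class I, and each brings Lck to the engaged receptor. A class II mismatch is therefore presented to CD4 T cells. CD8 occurs on most conventional CD8 T cells as a pair of an α chain (*Cd8a*) and a β chain (*Cd8b1*), and as an α-chain homodimer on some innate-like lymphocytes and dendritic cells.

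On GRCm38 (annotation GENCODE vM21, matched by symbol), *Cd3g* (chr9:44969572-44980431, minus strand), *Cd3d* (chr9:44981786-44987339, plus strand) and *Cd3e* (chr9:44998740-45009627, minus strand) lie together within 40056 bases, and *Cd3g* and *Cd3d* start 1355 bases apart and are read away from each other. *Cd247* lies alone at chr1:165788681-165877277 on the plus strand. *Trdc* (chr14:54142851-54148868) lies 71653 bases before *Trac* (chr14:54220521-54224206), within the same receptor locus, and *Trbc2* is at chr6:41546730-41548352, 6849 bases after its near-identical copy *Trbc1*. *Cd8b1* (chr6:71322788-71337494) ends 35933 bases before *Cd8a* (chr6:71373427-71379173), both on the plus strand, and *Cd4* is at chr6:124864692-124888221 on the minus strand. Each of these is the span of the whole gene, exons and introns.

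The promoters of the 4 CD3 chains are shown because *Cd3e*, *Cd3d* and *Cd3g* followed one another closely across cell types in these data, and *Cd247* followed them less closely. Each is a 300-base window around the start of the gene from RefSeq on GRCm38.p6, written 5′ to 3′ on the strand of the gene, at chr9:45009562-45009861 (minus), chr9:44981536-44981835 (plus), chr9:44980382-44980681 (minus) and chr1:165788431-165788730 (plus) in the order printed. Capitals mark an E-box, searched as CAGCTG or CAGGTG on both strands (the second reads CACCTG on the other strand), or an ETS-type word, searched as GGAAGT on both strands (ACTTCC on the other).

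Cd3e: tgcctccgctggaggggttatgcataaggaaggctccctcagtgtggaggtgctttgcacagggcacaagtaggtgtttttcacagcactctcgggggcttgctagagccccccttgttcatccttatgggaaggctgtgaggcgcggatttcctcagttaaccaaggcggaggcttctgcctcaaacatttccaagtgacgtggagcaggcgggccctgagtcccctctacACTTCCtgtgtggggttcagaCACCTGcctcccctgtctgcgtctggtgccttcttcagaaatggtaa
Cd3d: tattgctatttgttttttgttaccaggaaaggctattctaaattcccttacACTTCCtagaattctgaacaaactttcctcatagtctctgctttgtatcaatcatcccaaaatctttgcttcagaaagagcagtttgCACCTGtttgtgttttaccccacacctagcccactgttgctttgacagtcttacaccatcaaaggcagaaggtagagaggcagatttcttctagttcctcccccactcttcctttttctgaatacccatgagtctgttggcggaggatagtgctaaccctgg
Cd3g: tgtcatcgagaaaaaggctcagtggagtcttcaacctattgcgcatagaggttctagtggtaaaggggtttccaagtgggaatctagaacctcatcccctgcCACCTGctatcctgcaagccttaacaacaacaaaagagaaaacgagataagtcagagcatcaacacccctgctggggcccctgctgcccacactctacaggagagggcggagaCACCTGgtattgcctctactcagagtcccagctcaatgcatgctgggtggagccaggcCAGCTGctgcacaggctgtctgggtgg
Cd247: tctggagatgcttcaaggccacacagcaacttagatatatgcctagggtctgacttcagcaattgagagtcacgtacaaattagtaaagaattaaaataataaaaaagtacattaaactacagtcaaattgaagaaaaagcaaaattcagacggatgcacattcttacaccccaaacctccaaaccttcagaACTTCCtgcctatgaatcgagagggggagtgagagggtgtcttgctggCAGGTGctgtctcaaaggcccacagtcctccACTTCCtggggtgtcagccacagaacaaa

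Positions count from 1 at the first base of the gene in RefSeq, with negative numbers before it. For *Cd3e* this base lies within the GENCODE span given above and is not its first base. A single E-box stood in *Cd3e* (first base at 4), *Cd3d* (at -112) and *Cd247* (at -10), and 3 stood in *Cd3g* (at -148, -35 and 24). The ETS-type word occurred in *Cd3e* (at -18), *Cd3d* (at -199) and *Cd247* (at -58 and 22), and not in *Cd3g*. Of the 32851 promoter windows in the table, 32.9% held such an E-box and 23.8% held the ETS-type word. The *Cd8a* window (chr6:71373177-71373476) held an E-box at -2 and no ETS-type word, and the letters TGTGGT (a RUNX word, in 16.8% of all windows) and TATAAA (in 13.6%) were in none of the 5 windows. These are matches of letters and not measured binding sites. Sequences of the *Cd4*, *Cd8b1*, *Trac*, *Trbc2* and *Trdc* promoters are not shown.

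Values are CPM (UMIs scaled to the same total in every cell, where a UMI marks 1 captured transcript), averaged over the cells of a type within each heart. Between 230 and 1666 cells and between 908129 and 7012943 UMIs were measured per heart, and a cell had 1500 to 14977 UMIs. Heart 2 (IL-33+) was the thinnest, with 230 cells, 12 of them pooled T cells with a *Cd8a* or *Cd8b1* UMI and no *Cd4* UMI. No cell barcode was repeated. The cells annotated unconventional T cells (83 cells, 2 in heart 2) had a median of 10175 UMIs against 3364 in pooled T cells, and 95.2% of them held UMIs of at least 2 macrophage and monocyte markers or at least 2 B cell markers, against 11.6% to 19.0% in each of the 5 pooled types. Macrophage and monocyte markers (10 genes) summed to 4812 CPM in them, close to the 5403 CPM of Mo-DCs, and to 171 to 318 CPM in the 5 pooled types. Their part in the member values of unconventional T cells was not tested.

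**Figure D1:**
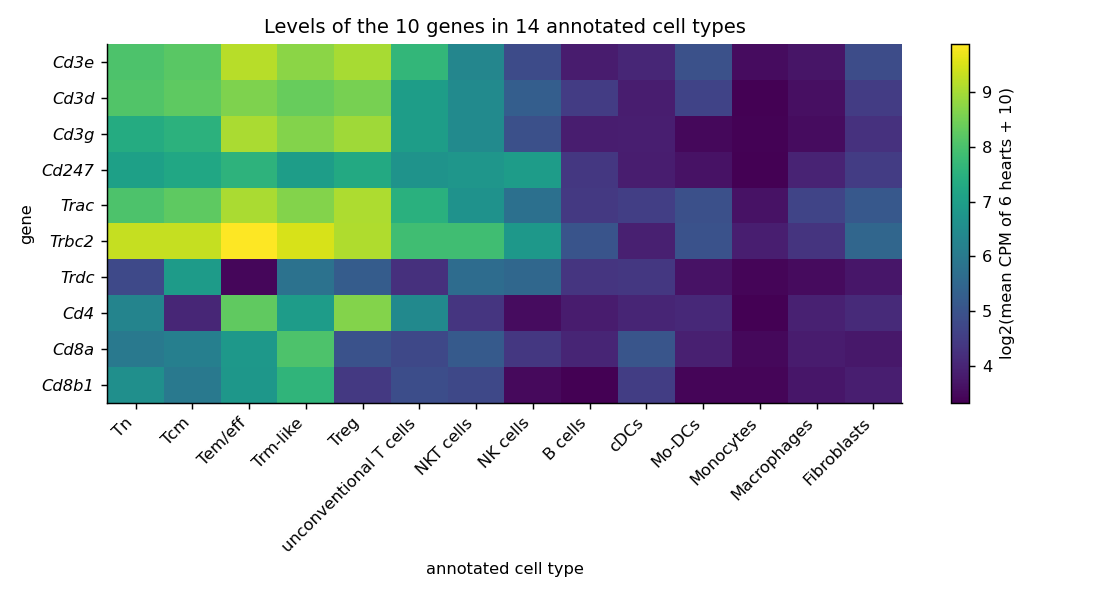
Mean level of each gene (rows) in each annotated cell type (columns) as log2(CPM + 10), averaged over 6 hearts. The CD3 chains and *Trac* are highest in Tem/eff cells and Tregs, *Cd247* continues into NK cells, and *Trdc* is highest in Tcm cells.

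The CD3ε, CD3δ and CD3γ transcripts were highest in Tem/eff cells and Tregs, lower in Tcm and Tn cells, and near the level of non-T cells in NK cells. The types were drawn from the same expression values, so the levels by type are a description without a test. *Cd3e*, whose chain pairs with both CD3δ and CD3γ, was at 568 ± 47.2 CPM in Tem/eff cells (mean ± SD over 6 hearts, both graft groups), 508 ± 57.1 in Tregs, 420.2 ± 120.3 in Trm-like cells, 287 ± 46.5 in Tcm cells and 254 ± 68.8 in Tn cells. Each of these overlapped the next over hearts. *Cd3g* made the steepest step, from 394 CPM in Trm-like cells (363 to 439 over hearts) to 176 CPM in Tcm cells (144 to 224), and the 6 hearts of these neighbours in the order did not overlap. *Cd3d* had the narrowest range of the 3 genes among the 5 pooled types, from 382 CPM in Tem/eff cells to 263 CPM in Tn cells, and each neighbour in its order overlapped the next. NKT cells held 70.2, 78.6 and 78.6 CPM of *Cd3e*, *Cd3d* and *Cd3g*, and NK cells 18.1, 28.6 and 20.5 CPM.

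Counted by cell, a *Cd3e* UMI was found in 92.0% of Tem/eff cells, 66.5% of Tregs, 66.9% of Trm-like cells, 64.3% of Tcm cells and 49.4% of Tn cells. The median depth of these types ran from 2706 UMIs (Trm-like) to 5693 UMIs (Tem/eff). After each cell was thinned to 1500 UMIs, the shares were 55.4%, 47.5%, 47.5%, 34.2% and 31.3%, in the same order. Among types that do not make CD3, the share with a *Cd3e* UMI was 1.75% in B cells (median 2292 UMIs), 2.56% in macrophages (6606 UMIs) 4.53% in fibroblasts (5790 UMIs) and 4.90% in Mo-DCs (2310 UMIs). NK cells held 4.30% (2711 UMIs), above B cells and below Mo-DCs, and after thinning 2.58%, against 0.350% in B cells and 3.43% in Mo-DCs. All 4 CD3 chains were found together in 37.9% of Tem/eff cells and in 1.65% of Tn cells. In 0 of 327 Tem/eff cells were *Cd3e*, *Cd3d*, *Cd3g*, *Trac* and *Trbc2* all missing. The limit for such a share was set by rule at 3 of the 327 cells (0.917%) and is not an exact interval. All 5 were missing in 40.6% of cells annotated NKT at a median of 5741 UMIs. The intervals and limits given here cover counting error only.

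*Cd247*, whose ζ chain also signals for Fc and natural cytotoxicity receptors of NK cells, had another distribution than the other CD3 genes. It was at 179 ± 40.8 CPM in Tem/eff cells, 149.7 ± 44.1 in Tregs, 141 ± 33.7 in Tcm cells and 122 ± 36.4 in Tn cells (SD, n = 6 hearts). Trm-like cells followed with 115 ± 24.8 CPM, NK cells with 114 ± 25.9 and NKT cells with 100.0 ± 20.2, and each of these 7 types overlapped the next over hearts. In NK cells it was detected in 26.4% of cells, against 3.50% of B cells and 4.53% of fibroblasts, and after thinning in 15.6% of NK cells and 18.4% of pooled T cells. Of all UMIs of the 10 genes, *Cd247* made up 33.6% in NK cells (95% exact interval 30.6% to 36.7%) and 4.81% in Tem/eff cells (4.34% to 5.31%). In fibroblasts, where *Cd247* made up 8.94% of the member UMIs, *Trac* and *Trbc2* led with 20.9% and 28.5%.

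*Trac*, the α constant gene, was at 527 ± 104 CPM in Tregs, 524 ± 123 in Tem/eff cells, 395 ± 102 in Trm-like cells, 294 ± 65.2 in Tcm cells and 253 ± 36.3 in Tn cells, and neighbouring types overlapped. *Trbc2*, a β constant gene, was at 935 ± 107 CPM in Tem/eff cells and between 544 and 703 CPM in the other 4 pooled types. It was at 226 CPM in unconventional T cells and 224 CPM in NKT cells, where every heart was below every heart of Tregs, the lowest of the pooled types. NK cells held 103 ± 27.5 CPM (67.2 to 140.5 over hearts), above every heart of fibroblasts (0 to 59.1 CPM). A *Trbc2* UMI was found in 16.9% of NK cells, against 10.4% of fibroblasts and 4.55% of B cells.

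The β chain has 2 constant genes, and *Trbc1*, which is not among the 10 genes, is needed to read *Trbc2*. Their coding sequences differed at 23 of 521 bases, 1 of them in the first 360 bases and 19 of them in the last 120, and the transcript parts after the stop codon shared no word of 25 bases, so that reads near the 3′ end can separate the copies while reads further up cannot. How such reads were counted is not given in the sources used here, and the split between the copies is uncertain to that extent. The last 120 coding bases are shown because the copies part there, with the differing bases in capitals (GENCODE vM21 transcripts, plus strand of chromosome 6, ending with the stop codon).

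Trbc1: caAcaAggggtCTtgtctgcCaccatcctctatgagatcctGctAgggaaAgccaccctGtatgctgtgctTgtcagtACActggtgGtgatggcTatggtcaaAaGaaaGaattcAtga
Trbc2: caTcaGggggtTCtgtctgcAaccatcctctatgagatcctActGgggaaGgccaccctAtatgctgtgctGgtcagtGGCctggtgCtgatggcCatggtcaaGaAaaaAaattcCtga

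*Trbc1* made up 37.7% of the *Trbc1* and *Trbc2* UMIs of pooled T cells (31.5% to 44.0% over the 6 hearts) and between 34.4% and 41.8% in each of the 5 types. In NKT cells the share was 62.0% (54.1% to 68.9% over hearts) and in NK cells 79.1% (73.7% to 85.5%), so that every heart of both types was above every heart of the pooled T cells. Taken by type, single hearts reached 57.8% in Tn and 54.4% in Trm-like cells, within the range of NKT cells and below that of NK cells. NK cells held *Trbc1* at 331, 461 and 298 CPM in the IL-33+ hearts and 378, 374 and 326 CPM in the IL-33- hearts, and 52.1% of them had a *Trbc1* UMI, against 9.79% of B cells and 10.7% of fibroblasts. The few UMIs of both genes in some types without a TCR also held *Trbc1* in the larger part, 74.0% of 50 in B cells (95% exact interval 59.7% to 85.4%) and 63.0% of 92 in macrophages, though 47.7% in fibroblasts, and the part of such UMIs in the share of NK and NKT cells was not tested. The ratio was added after the values were seen. *Trbc1* alone was found in 397 NK cells, *Trbc2* alone in 69 and both in 88.

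*Trdc*, the δ constant gene, was highest in cells annotated Tcm. The Tcm cells of the IL-33+ hearts held 186, 60.0 and 160.3 CPM and those of the IL-33- hearts 64.3, 81.1 and 118 CPM. Next came Trm-like cells with 45.1 ± 50.3 CPM (0 to 127 over hearts), NKT cells with 39.7 ± 32.5 CPM and NK cells with 35.8 ± 11.3 CPM, each overlapping the next. Tem/eff cells, at the top or next to it for the α and β constant genes, were at 0.796 ± 1.40 CPM. A *Trdc* UMI was found in 17.7% of Tcm, 16.4% of NKT, 9.02% of NK and 4.42% of Trm-like cells, and in 0.917% of Tem/eff and 1.05% of B cells.

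Because a δ chain pairs with a γ chain and not with an α chain, the Tcm cells with a *Trdc* UMI (47 of 266) were set against those without one. This comparison was added after the values were seen. A *Trac* UMI was found in 23.4% of the cells with *Trdc* and in 69.4% of the others, a UMI of *Tcrg-C1*, *Tcrg-C2* or *Tcrg-C4* (γ constant genes) in 55.3% and 8.22%, and a coreceptor UMI in 19.1% and 32.4%, at median depths of 3894 and 4061 UMIs. After thinning to 1500 UMIs, 26 Tcm cells kept a *Trdc* UMI, and *Trac* was found in 3.85% of them and 37.1% of the others, and a γ constant gene in 23.1% and 7.08%. In the 5 hearts with at least 3 cells in both classes (heart 2 had 2 with *Trdc*), *Trac* was at 32.9, 62.3, 133, 145 and 44.9 CPM in cells with *Trdc* and at 248, 372, 374, 375 and 311 CPM in the others, lower in 5 of 5 hearts and without overlap. The fitted change of *Trac* was -2.06 ± 0.35 on the log2(CPM + 10) scale (SE, limma with heart as a block, Benjamini-Hochberg adjusted p = 0.00018 over 7611 genes, of which 0.0394% were called), where the median of all genes was -0.26. With 1 CPM added in place of 10 it was not called (adjusted p = 0.0501). *Cd3e* (327 ± 56.0 CPM with *Trdc* and 273 ± 51.2 without, log2 difference 0.25 ± 0.27, adjusted p = 0.789), *Cd3g* (0.59 ± 0.32, adjusted p = 0.560) and *Trbc2* (-0.58 ± 0.21, adjusted p = 0.328) were not called. *Cd8b1* was at 0 CPM in 3 of the 5 hearts in cells with *Trdc* and at 31.7 to 162 CPM in the others, with a log2 difference of -2.15 ± 0.71 that was not called (adjusted p = 0.267). *Tcrg-C4* was at 58.1 to 173 CPM with *Trdc* and 0 to 23.2 CPM without, higher in 5 of 5 hearts (2.62 ± 0.67, adjusted p = 0.207), and *Tcrg-C1* at 30.4 to 168 CPM and 0 to 12.6 CPM (2.48 ± 0.71, adjusted p = 0.261). These directions rested on few cells, as 15, 11, 8, 6 and 5 cells held *Trdc* in hearts 1, 3, 4, 5 and 6. Of them 46.7%, 27.3%, 25%, 33.3% and 20% had a *Tcrg-C4* UMI and 13.3%, 18.2%, 25%, 33.3% and 20% a *Tcrg-C1* UMI. Besides *Trac*, the genes called were *Ikzf2* (-1.25 ± 0.23, lower in 4 of 5 hearts) and *S100a6* (1.20 ± 0.22, higher in 5 of 5), and neither was called without the block of hearts. The value of *Ikzf2* rested on heart 6, where 5 cells held *Trdc* and the log2 difference was -3.69, while the other 4 hearts lay between -1.37 and 0.23, and without heart 6 it was -0.64 and not called (adjusted p = 0.274). *S100a6* was not called by limma without heart 4 (adjusted p = 0.0518) or with limma-voom (0.87, adjusted p = 0.0773). Nor was it called by limma when cells with at least 2 macrophage and monocyte or at least 2 B cell markers were left out (0.99, adjusted p = 0.0744). In NKT cells a *Trac* UMI was found in 31.6% of the cells with *Trdc* and 29.3% of those without, and γ constant UMIs in 12.3% and 8.62%.

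**Figure D2:**
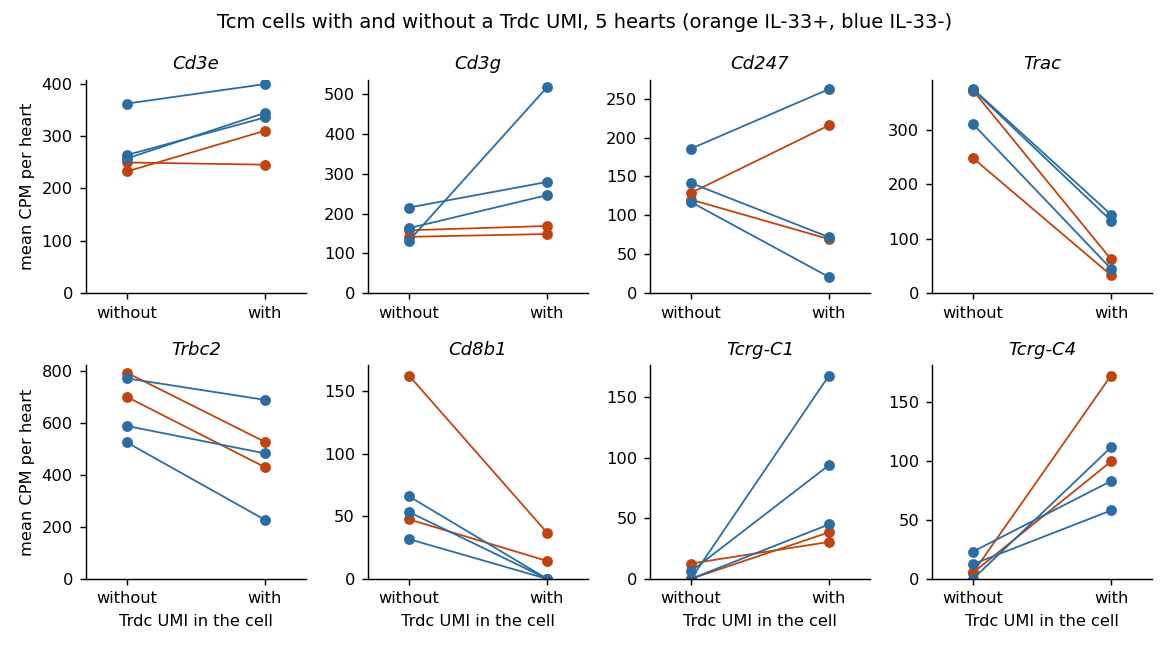
Mean CPM per heart of 8 genes in cells annotated Tcm without and with a *Trdc* UMI, with a line for each of 5 hearts (orange IL-33+, blue IL-33-). *Trac* is lower with *Trdc* in all 5 hearts, and *Tcrg-C1* and *Tcrg-C4* are higher in all 5. Each heart has 5 to 15 cells with *Trdc*.

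The coreceptors divided the annotated T cell types unevenly. *Cd4* was at 397 ± 32.2 CPM in Tregs and 302.5 ± 63.8 in Tem/eff cells, and at 114 ± 84.6 in Trm-like cells, 67.8 ± 38.3 in Tn cells and 6.19 ± 5.47 in Tcm cells (SD, n = 6 hearts). The Tcm level was within the range of non-T cells, which ran from 0 CPM in monocytes to 7.12 CPM in fibroblasts. *Cd8a* was highest in Trm-like cells at 256 ± 96.4 CPM, followed by Tem/eff cells (102 ± 70.1), Tcm cells (61.0 ± 22.7) and Tn cells (53.0 ± 47.4). *Cd8b1* was also highest in Trm-like and Tem/eff cells, with 186 ± 102 and 101 ± 69.9 CPM. Over hearts, *Cd8b1* in Trm-like cells ran from 13.4 CPM in heart 2 to 325 CPM in heart 1, both IL-33+.

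By cell, 62.1% of Tem/eff cells had a *Cd4* UMI and none of *Cd8a* or *Cd8b1*, and 16.8% had the reverse (called Cd4 and Cd8 cells below). In Tregs these shares were 55.5% and 3.04%, in Trm-like cells 12.4% and 51.9%, in Tn cells 14.8% and 23.9% and in Tcm cells 2.26% and 26.7%. Neither coreceptor was found in 69.9% of Tcm, 60.9% of Tn and 16.5% of Tem/eff cells, and both were found in 0.412% to 4.59% of the 5 types. With cells thinned to 1500 UMIs the Cd4 and Cd8 shares were 32.7% and 13.5% in Tem/eff, 39.2% and 2.66% in Treg, 8.01% and 42.0% in Trm-like and 1.13% and 11.7% in Tcm cells. In B cells 0.699% had *Cd4* alone and 2.10% *Cd8a* or *Cd8b1* alone, and in macrophages 3.03% each, so that the 2.26% of Tcm cells with *Cd4* lay within background and the 26.7% with *Cd8* did not. Over the 6 hearts the Cd8 share of Trm-like cells ran from 25% (heart 2) to 65.1% (heart 6) and that of Tcm cells from 15.8% (heart 2) to 41.5% (heart 3).

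**Figure D3:**
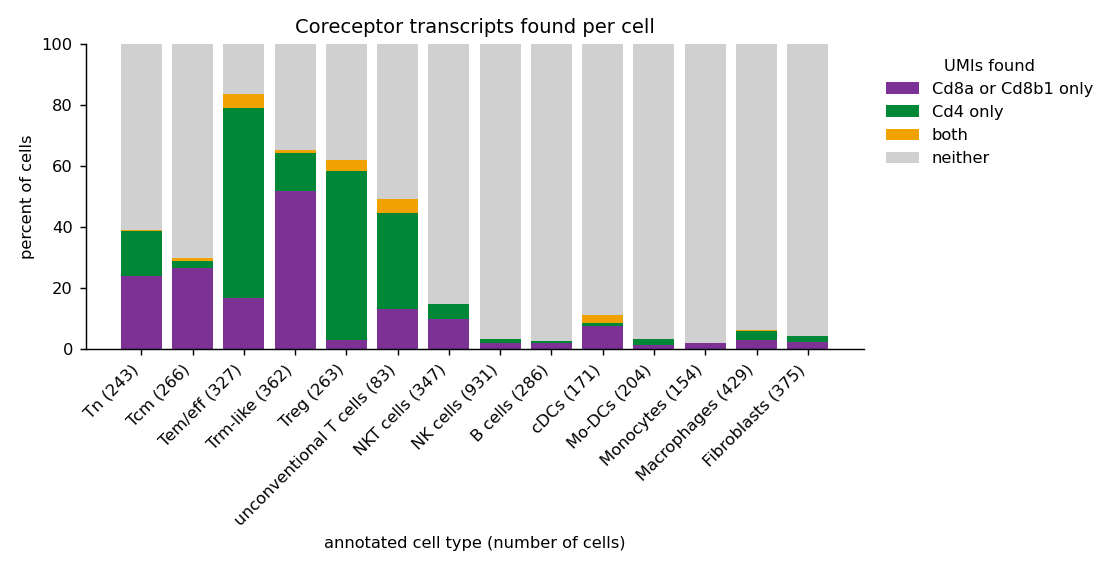
Share of the cells of each annotated type, in percent, with UMIs of *Cd8a* or *Cd8b1* alone, *Cd4* alone, both or neither, with the number of cells in brackets. Trm-like cells are 51.9% Cd8, Tem/eff cells 62.1% and Tregs 55.5% Cd4, and Tcm cells 26.7% Cd8 and 2.26% Cd4.

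*Cd8a* and *Cd8b1* were found together in 70.0% of the 70 Tem/eff cells with either of them, in 44.5% of 191 Trm-like cells, in 21.6% of 74 Tcm cells and in 16.9% of 59 Tn cells, which differ in depth. *Cd8a* made up 51.5% of the UMIs of both genes in Tem/eff cells (95% exact interval 47.0% to 55.9%), 51.4% in Tcm cells, 56.4% in Trm-like cells (52.0% to 60.6%) and 62.5% in NKT cells (53.2% to 71.2%). In NK cells it made up 82.6% (19 UMIs of *Cd8a* and 4 of *Cd8b1*, interval 61.2% to 95.05%) and no cell held both, and in Tregs 75.8% (25 UMIs of *Cd8a* and 8 of *Cd8b1*, 57.7% to 88.9%). Conventional DCs had *Cd8a* in 7.02% of cells, against 2.10% of B cells and 2.10% of macrophages. Of their 17 cells with either gene, 11 held *Cd8a* alone, 5 *Cd8b1* alone and 1 both. *Cd8a* made up 62.7% of their UMIs of both genes (32 of *Cd8a* and 19 of *Cd8b1*, interval 48.1% to 75.9%).

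The pattern over types was compared among genes by Pearson's correlation of log2(mean CPM + 10) across the 14 types, over 9306 genes with at least 20 CPM in some type. These types share 1 pooled library and were drawn from the same values, so the coefficients are a description. The 2 genes most like *Cd3e* were *Trac* (r = 0.992) and *Cd3d* (0.990), and *Cd3g* (0.987) came next. *Cd3g* was most like *Cd28* (0.988), the costimulatory receptor for CD80 and CD86, and *Trac* had *Cd28* (0.981) next after *Cd3e* and *Cd3d*. *Cd247* had no other CD3 chain among its 3 nearest genes, which were *Trbc1* (0.982), *Vgll4* (0.980) and *Lck* (0.980), the kinase bound to CD4 and CD8. Its r was 0.86 with *Cd3e*, 0.90 with *Cd3d* and 0.89 with *Cd3g*. *Trbc2* was followed by *Cd3d* (0.983), *Ubash3a* (0.981), a negative regulator of TCR signalling, and *Trac* (0.976). *Cd8a* and *Cd8b1* were each other's nearest gene (0.952), ahead of *Keap1* for both. *Cd4* was nearest to *Izumo1r* (0.963), the folate receptor 4 of Tregs, *Tnfsf8* (0.955) and *Sdf4* (0.951). *Trdc* had the weakest likeness, with *Klra5* (0.903), *Dmrta1* (0.880) and the γ constant gene *Tcrg-C4* (0.877), and its r with *Cd3e* was 0.50 and with *Cd4* 0.09.

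The design asks whether graft IL-33 is followed by different levels in the infiltrating cells. In pooled T cells none of the 10 genes was called between IL-33+ and IL-33- hearts, and the 2 whose hearts did not overlap were *Cd3g* and *Trdc*. *Cd3g* was at 371, 399.97 and 374 CPM in the IL-33+ hearts and 309.6, 359.7 and 336 CPM in the IL-33- hearts, a log2 difference of 0.18 ± 0.12 (SE, limma, adjusted p = 0.965). *Trdc* was at 39.6, 49.5 and 49.1 CPM against 34.5, 32.8 and 25.9 CPM, a log2 difference of 0.45 ± 0.20 (unadjusted p = 0.0355, adjusted p = 0.957). All IL-33+ hearts lay above all IL-33- hearts for both, which held for 10.1% of the 11205 genes tested in one direction or the other. A mean over pooled T cells does not by itself separate fewer expressing cells from less RNA per cell. In Tcm cells, the type highest for *Trdc*, a *Trdc* UMI was found in 35.7%, 10.5% and 20.8% of cells in the IL-33+ hearts. In the IL-33- hearts it was found in 12.9%, 12.2% and 12.2%, and the groups overlapped. The share of cells with a UMI was not tested between graft groups. Of the 11205 genes, 3 were called (0.0268%), and 574 (5.12%) had an unadjusted p of at most 0.05, as did 1 of the 10 members.

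*Cd3e* was at 430.0, 388 and 432 CPM in IL-33+ and 409, 444 and 455 CPM in IL-33- hearts, and the groups overlapped. *Cd3d* was at 376, 305.6 and 333 CPM against 277, 355 and 327 CPM, and *Cd247* at 165, 139 and 145 CPM against 105, 129 and 151 CPM. The receptor constant genes also overlapped, with *Trac* at 344, 421 and 429 CPM against 427, 443 and 372 CPM and *Trbc2* at 693, 697 and 748 CPM against 676, 735 and 630.5 CPM. The log2 differences of these 5 genes lay between -0.06 and 0.21 (limma, adjusted p from 0.965 to 0.970). The coreceptors spread most between hearts of one group. *Cd8b1* was at 185, 18.1 and 113 CPM in IL-33+ and 81.6, 71.8 and 113 CPM in IL-33- hearts (-0.15 ± 0.38). *Cd8a* was at 208, 62.3 and 134 CPM against 87.4, 78.2 and 122 CPM (0.34 ± 0.25), and *Cd4* at 136, 243 and 192 CPM against 153, 176 and 165 CPM (0.16 ± 0.16). Heart 2 was lowest for both *Cd8* genes and highest for *Cd4*, and heart 1 was the reverse.

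**Figure D4:**
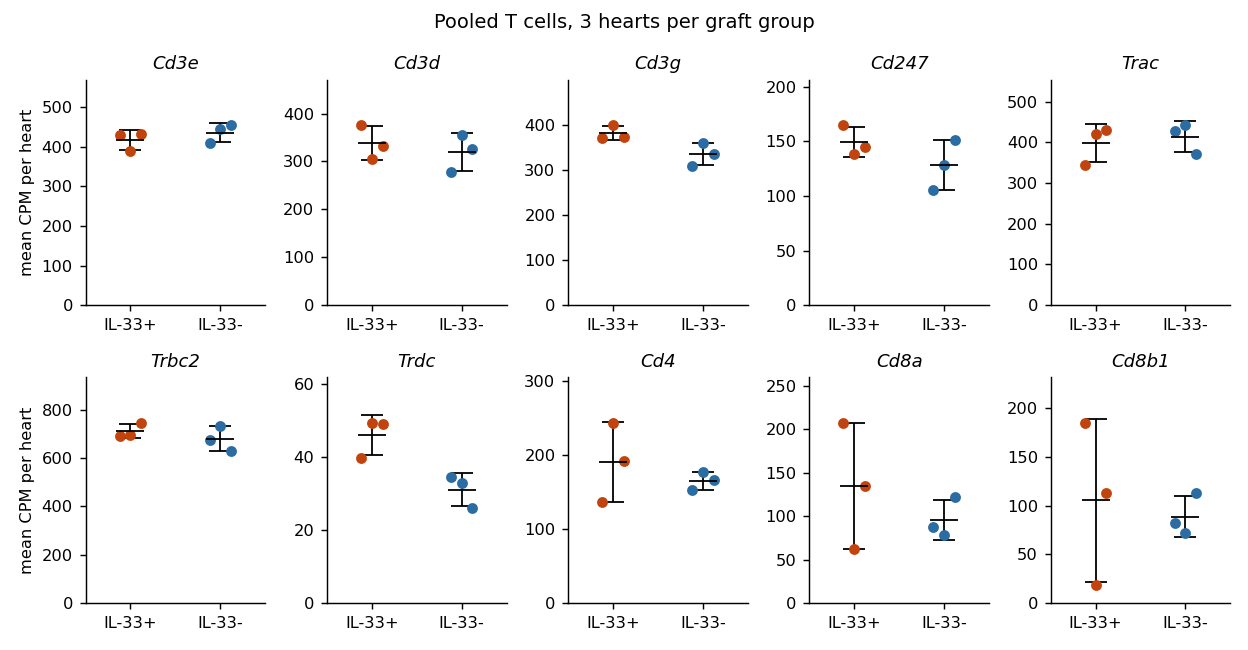
Mean CPM per heart of each of the 10 genes in pooled T cells, with orange points for the 3 IL-33+ and blue points for the 3 IL-33- hearts and black bars for mean ± SD. The groups are apart for *Cd3g* and *Trdc* and overlap for the other 8 genes.

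Within single types, 97 of the 140 pairs of a gene and a type passed the filter on low counts (10 UMIs or more, seen in 3 hearts or more), and none was called (limma, lowest adjusted p = 0.817). An unadjusted p of at most 0.05 was reached by 4 of the 97 (4.12%), against 4.71% of all 113178 gene by type tests, and the hearts did not overlap for 6 of the 97 (6.19%), against 9.82% of all such tests. Over the same tests 0.00884% were called. In Tem/eff cells *Cd247* was at 206, 201 and 234 CPM in IL-33+ and 128, 145 and 160 CPM in IL-33- hearts, without overlap (log2 difference 0.54 ± 0.20, unadjusted p = 0.0118, adjusted p = 0.998). In NK cells *Trbc2* was at 103, 77.8 and 67.2 CPM in IL-33+ and 124, 140.5 and 105 CPM in IL-33- hearts (-0.53 ± 0.24, unadjusted p = 0.0333, adjusted p = 0.846). *Cd3g* and *Cd247* in unconventional T cells had differences of 1.57 ± 0.77 and 2.05 ± 0.86 (unadjusted p = 0.0482 and 0.0227, adjusted p = 0.984 for both) in groups that overlapped, and with hearts of fewer than 10 cells left out these were -1.03 and -0.62. The other pairs without overlap were *Cd3e* in Tn cells (335, 295 and 266 against 257, 132 and 236 CPM), *Cd3e* in Tem/eff cells (548, 495 and 560 against 606, 630 and 567 CPM), *Trac* in cDCs and *Cd3d* in fibroblasts, which went in both directions.

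The share of Cd8 cells among pooled T cells with 1 kind of coreceptor (816 cells) was 58.0%, 23.1% and 46.4% in the IL-33+ hearts and 43.5%, 41.3% and 52.9% in the IL-33- hearts. The means were 42.5% ± 17.8 and 45.9% ± 6.16 (SD, n = 3), and the groups overlapped (two-sided exact permutation test, p = 0.9, where 0.1 is the smallest p that 3 against 3 hearts allow). Heart 2 rested on 12 Cd8 and 40 Cd4 cells (95% exact interval 12.5% to 36.8%). Without heart 2 the IL-33+ mean was 52.2%, above the IL-33- mean.

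Cd8 and Cd4 cells were then compared with each other within hearts, over the genes that did not define them. The IL-33+ and IL-33- hearts entered together, with heart as a block, and all 6 hearts had at least 5 cells of both classes (380 Cd8 and 436 Cd4 cells, median depths 3424 and 3916 UMIs). Of 10340 genes, 240 were higher in Cd8 cells (2.32%) and 454 higher in Cd4 cells (4.39%), 6.71% in all. Of the 7 members tested, *Cd3g* and *Cd3e* were lower in Cd8 cells and *Trdc* was higher. *Cd3g* was at 378, 466, 361, 283, 349 and 375 CPM in the Cd8 cells of hearts 1 to 6 and at 554, 646, 554, 411, 491 and 413 CPM in the Cd4 cells, lower in 6 of 6 hearts (log2 difference -0.46 ± 0.11, limma adjusted p = 0.0120). *Cd3e* was at 474, 308, 474, 436, 382 and 426 against 506, 491, 507, 562, 667 and 602 CPM, also lower in 6 of 6 (-0.41 ± 0.12, adjusted p = 0.0344). The call of *Cd3g* did not hold without heart 1 (adjusted p = 0.0525) or heart 3 (0.0594), and that of *Cd3e* not without heart 4 (0.0759), 5 (0.142) or 6 (0.109).

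*Cd247* lay below its Cd4 level in the Cd8 cells of 6 of 6 hearts (119 ± 9.19 against 173 ± 32.2 CPM, -0.49 ± 0.16) and *Trac* in 5 of 6 (407 ± 78.6 against 515 ± 49.7 CPM, -0.34 ± 0.12), and neither was called (adjusted p = 0.0792 and 0.0884). Without heart 2 both were (adjusted p = 0.0493 and 0.0105). *Cd3d*, the neighbour of *Cd3g*, was at 361 ± 82.3 and 366 ± 39.2 CPM and was lower in 3 of 6 hearts (-0.05 ± 0.13, adjusted p = 0.900). *Trbc2* was at 826 ± 117 and 733 ± 96.0 CPM (0.17 ± 0.11, adjusted p = 0.453). *Trdc* rested on few UMIs, 39 in 16 of the 380 Cd8 cells and 4 in 3 of the 436 Cd4 cells, and Cd4 cells of 5 hearts held none. Summed over all hearts, this was 12.8 times as many relative to all UMIs (95% exact interval 4.62 to 49.4). That interval takes each UMI as independent and leaves out the grouping by cell and heart, so it understates the uncertainty. Heart 3 held the highest level in both classes, with 60.5 CPM in Cd8 and 7.62 CPM in Cd4 cells, and the Cd8 cells of the other 5 hearts lay between 3.13 and 14.96 CPM. The share of Cd8 cells with a *Trdc* UMI in hearts 1 to 6 was 3.95%, 8.33%, 7.69%, 1.37%, 2.63% and 1.56%. These are shares of 76, 12, 117, 73, 38 and 64 cells, so that the direction within a heart rested on few cells. The log2 difference was called (1.03 ± 0.27, adjusted p = 0.0176, and 0.0607 without heart 1 and 0.0818 without heart 3).

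The classes differed in their mixture of types, and 49.5% of Cd8 cells were Trm-like while 46.6% of Cd4 cells were Tem/eff and 33.5% Treg. Tcm cells, the type highest for *Trdc*, made up 18.7% of Cd8 and 1.38% of Cd4 cells. Fits within 1 type were run for Trm-like and Tem/eff cells only, and in neither was any of the 6 members tested called. *Trdc* was not tested in them, so its difference was not checked within a type. These fits kept hearts with at least 5 cells of both classes. Heart 6 (4 Cd4 cells) fell out for Trm-like cells, and hearts 2 and 5 (2 and 4 Cd8 cells) for Tem/eff cells. The Trm-like hearts kept held 6 to 14 Cd4 cells each. Among Trm-like cells *Cd3g* differed by 0.80 ± 0.36 and *Cd3e* by 0.54 ± 0.32 between Cd8 and Cd4 cells on the log2 scale (limma adjusted p = 0.495 and 0.673), the opposite direction, with 26 genes called in all. Among Tem/eff cells, with 285 genes called, *Cd3g* differed by -0.09 ± 0.17 and *Cd3e* by -0.23 ± 0.17 (adjusted p = 0.884 and 0.581), *Cd3d* by 0.22 ± 0.19, and *Trbc2* by 0.44 ± 0.15 (adjusted p = 0.106).

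**Figure D5:**
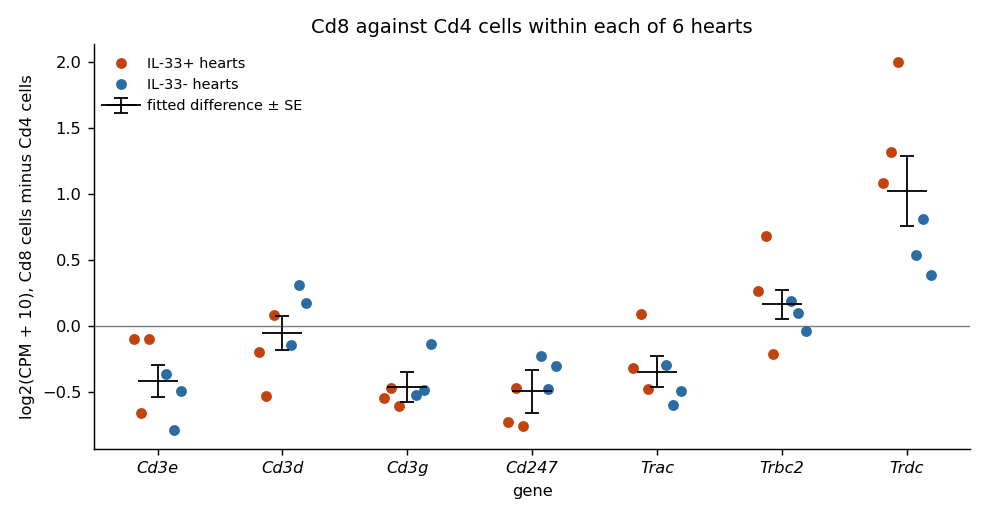
Difference between Cd8 and Cd4 cells in log2(CPM + 10) for 7 genes in each of 6 hearts (orange IL-33+, blue IL-33-), with the fitted difference ± SE in black. *Cd3e*, *Cd3g* and *Cd247* are below 0 in all 6 hearts. *Trdc* is above 0 in all 6, with UMIs in 16 of 380 Cd8 and 3 of 436 Cd4 cells.

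Among other genes, those of a cytotoxic and of a helper list were set against the coreceptors. Of 19 genes of a CD8 T cell list, 13 were higher in Cd8 cells and 1, *Cst7*, was lower, with a median of 1.24 where that of all genes was -0.08. The 8 largest differences of all genes higher in Cd8 cells were *Ly6c2* (446 ± 200 against 15.4 ± 15.1 CPM, 4.27 ± 0.26), the granzymes *Gzma* (3.37 ± 0.49, higher in 5 of 6 hearts) and *Gzmk* (2.99 ± 0.27), *Cdh1* (2.57 ± 0.31), the ligand of KLRG1 and CD103, *Eomes* (2.36 ± 0.33), the chemokine *Ccl5* (2490 ± 896 against 506 ± 243 CPM, 2.31 ± 0.22), *Pde2a* (2.27 ± 0.21) and *Atp8b4* (2.24 ± 0.31). The values of *Gzma* lay apart by graft, with log2 differences of 5.76, 5.92 and 4.58 in IL-33+ hearts (2251, 1713 and 1921 CPM in Cd8 cells) and of 1.40, -0.30 and 2.87 in IL-33- hearts (175, 89.5 and 529 CPM), without overlap, and whether the difference between the classes depended on the graft was not tested. The share of Cd8 cells with a *Gzma* UMI did overlap, at 52.6%, 33.3% and 31.6% in IL-33+ and 28.8%, 23.7% and 40.6% in IL-33- hearts. Heart 2 held 12 Cd8 cells. The other genes of the list that were higher were *Gzmb* (1.78), *Klrd1* (1.69), *Ccl4* (1.56), *Klrk1* (1.42), *Prf1* (1.24), *Runx3* (1.05), which silences *Cd4* in the CD8 lineage, *Nkg7* (0.94) and *Ctsw* (0.82). Of 19 genes of a CD4 T cell list, 14 were higher in Cd4 cells and none in Cd8 cells, with a median of -1.31, or -1.42 with *Cd40lg*, the CD40 ligand, set at its bound. *Cd40lg* was at 16.03 ± 9.49 CPM in Cd4 cells and at 0 in the Cd8 cells of every heart, at least 7.99-fold higher in Cd4 cells (against 3 UMIs over all Cd8 cells). The 8 largest differences of all genes higher in Cd4 cells were the TNF family members *Tnfrsf4* (OX40, 732 ± 87.0 CPM against 37.2 ± 28.5, -4.24 ± 0.26), *Tnfsf8* (-3.88 ± 0.23) and *Tnfsf11* (-3.27 ± 0.31), the growth factor *Areg* (-3.66 ± 0.31), *Lgals7* (-3.62 ± 0.30), the IL-2 receptor chain *Il2ra* (-3.58 ± 0.34), *Izumo1r* (-3.53 ± 0.24) and the transcription factor *Maf* (-3.39 ± 0.22). The other genes of the list that were called were *Il1rl1* (-2.64), the IL-33 receptor, *Ctla4* (-2.60), *Foxp3* (-2.46), *Tnfrsf18* (-1.46), *Il21* (-1.42), *Icos* (-1.10), *Gata3* (-1.09), *Bcl6* (-0.98) and *Rora* (-0.85). Each log2 difference in this paragraph has a limma adjusted p of at most 0.05. Both lists were chosen with earlier results of these data known. The classes also differed in type mixture, with Tregs making up 33.5% of Cd4 and 2.11% of Cd8 cells. The part of that mixture in the class differences of this paragraph and the next was not tested gene by gene.

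Of 30 genes of proximal TCR signalling, which pass the signal on from the CD3 chains, 4 were called, with a median difference of 0.07. Of all genes, 6.71% were called in either direction. *Txk*, a Tec-family kinase (1.43 ± 0.23), and *Ptprc*, the phosphatase CD45 (0.36 ± 0.08), were higher in Cd8 cells. *Ubash3b*, a phosphatase that restrains the signal (-2.02 ± 0.21), and the ubiquitin ligase *Cblb* (-0.52 ± 0.15) were higher in Cd4 cells. The kinases and adaptors next to the receptor were not called, with *Lck* at -0.05 ± 0.13, *Zap70* at -0.56 ± 0.18 (adjusted p = 0.0629) and *Lat* at 0.24 ± 0.14. Of 9 genes of a list on costimulation and adhesion, 6 were higher in Cd4 cells, where 4.39% of all genes were. They were *Cd5* at -1.17, *Icos* at -1.10, *Cd2* at -0.85, *Cd28* at -0.68, *Cd27* at -0.51 and *Sla*, which encodes an intracellular adaptor, at -1.56. *Thy1* was higher in Cd8 cells (0.50 ± 0.12). In the comparison of graft groups the same 30 signalling genes had no call in either direction in pooled T cells, with a median of 0.10 against -0.00434 for all genes. The CD8 list had 1, *Gzma* (1.81 ± 0.25 higher in IL-33+ hearts, adjusted p = 0.00158 by limma over 11205 genes), which with *Nr4a1* (1.02 ± 0.18) and *Hist1h1c* (0.86 ± 0.15, both adjusted p = 0.0313) made up the 3 genes called. With a heart left out, *Nr4a1*, an early gene induced by TCR signals, and *Hist1h1c*, a linker histone, lost their calls unless that heart was heart 1, while *Gzma* was called without any 1 of the 6 and was not called without the filter on low counts (adjusted p = 0.931).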

How the data were processed

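Single-cell RNA was measured in 6 pooled Bm12 heart allografts at day 14. Per the labels and the methods, the authors used the 10x 3' kit, Cell Ranger on mm10 and Partek 10.0.23.0425, filtered cells on counts, genes and mitochondrial share, and supplied log2(CPM + 1) for every gene in the deposited matrix, with each cell's type, graft and hashtag in a second file. How hashtags were assigned is not given in the sources used here.

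The members and gene lists were chosen with earlier results of these data known. UMIs were recovered from the steps of the values (99.9% of low values within 0.05 of a whole number). For each heart and type, mean CPM plus 10 was put on the log2 scale and fitted with limma 3.58.1 (trend) in R 4.3.3, for genes with 10 UMIs or more, seen in 3 hearts or more. Calls needed a Benjamini-Hochberg adjusted p of 0.05 over all genes tested. A fold change on this scale understates the change of low genes. Hearts came from separate grafts, and both groups were run in 1 pool. The share of Cd8 cells was tested by exact permutation. Intervals are exact (Clopper-Pearson, 95%) and cover counting error, not the spread between cells or hearts. Cells were also thinned to 1500 UMIs (Python 3.11.15, NumPy 2.4.6, SciPy 1.17.1). The fits were tested on simulated data. No doublet caller was run, and an alternative left out T cells with at least 2 macrophage, monocyte or B cell markers. Other alternatives changed the pseudocount, the filter, the scaling, the model, the block and the hearts included. Named genes were the members, the 3 genes most like each over types, the 8 largest calls in each direction between Cd8 and Cd4 cells, and calls on the signalling, CD8 and CD4 lists. Any further gene was picked with its values known. Symbols of γ constant genes in the lists were changed to those of the matrix.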

Additional observations from a re-analysis of the deposited data

Results flagged for a closer look

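*Cd3g* was marked in 2 comparisons because 1 heart stood far from the rest, by a rule that marks about 1 in 20 sets by chance. In heart 6 its log2 difference between Cd8 and Cd4 cells was -0.14, and the other 5 hearts lay between -0.61 and -0.46. In Tcm cells of heart 5, with 6 cells that held a *Trdc* UMI, *Cd3g* was 1.89 higher than in the cells without, and the other 4 hearts lay between 0.07 and 0.56.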

How the results depend on the processing

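Between graft groups no member was called under any alternative run, in pooled T cells or in a type. The 3 genes called in pooled T cells became 1 with 1 or 50 CPM added, 0 without the filter, 1 with limma-voom, and 1 to 7 with a heart left out (7 without heart 1, and 1 without heart 2, 3 or 4). No paired analysis was possible between graft groups because the hearts of the 2 groups came from different mice that nothing ties together. The difference in the share of Cd8 cells (-3.38 percentage points) was 3.18 when a class needed 2 UMIs, and ran from -11.1 to 6.34 with a heart left out (6.34 without heart 2, 0.129 without heart 6). Signs also turned for uncalled members in pooled T cells. With a heart left out, *Cd3d* ran from -0.0148 to 0.158, *Trac* from -0.131 to 0.0408, *Cd4* from -0.0229 to 0.374, *Cd8a* from -0.0292 to 0.767 and *Cd8b1* from -0.728 to 0.670 (log2), and *Cd8b1* was 0.0531 with limma-voom. With hearts of fewer than 10 cells left out, *Cd3g* and *Cd247* in unconventional T cells were -1.03 and -0.62.

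The 694 genes called between Cd8 and Cd4 cells became 385 without the filter, 26 in Trm-like and 285 in Tem/eff cells alone, where fewer cells and genes were tested, 482 to 859 with a heart left out, and 650 without the replicate block of hearts, which ended the call of no member. Among Trm-like cells *Cd3e* (0.54), *Cd3d* (0.45), *Cd3g* (0.80) and *Trac* (0.18) turned. *Cd3d* was also 0.0151 with summed UMIs, 0.0590 with limma-voom and 0.22 in Tem/eff cells, and ran from -0.119 to 0.0491 with a heart left out. Without the filter *Cd3e* and *Trdc* lost their calls (adjusted p = 0.101 and 0.0713), as they did with 2 UMIs per class (0.117 and 0.0777), and *Cd3e* with 1 CPM added (0.0553). The 3 genes called in Tcm cells by *Trdc* became 0 with 1 CPM added (*Trac* adjusted p = 0.0501), 5 with summed UMIs, 26 with limma-voom, 1 without the replicate block, and 3 to 6 with a heart left out (6 without heart 1 or 5, 5 without heart 6). *Cd3e* was then -0.0994 with limma-voom, and *Cd3d* -0.128 with limma-voom and -0.0762 to 0.465 with a heart left out. Causes were not tested. Few cells per heart and type limit precision.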
